A study of Caenorhabditis elegans with 2 samples.

Results

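The regions described here are conservative ChIP-seq peaks of D1046.2 that lie inside the protein-coding part of genes. A peak was taken when its summit fell in a coding exon of a protein-coding gene, outside a promoter window and more than 500 bp from any tRNA gene. Promoter windows begin 500 bp before and end 100 bp after each annotated 5′ end of the protein-coding genes. Of the 1546 conservative peaks, 259 met this rule, or 16.75% (95% Wilson interval 14.97 to 18.7). They lay in 243 different genes. In all, 298 conservative summits fell in a coding exon, of which 34 lay in a promoter window and 6 near a tRNA gene.

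D1046.2 was mapped in whole Caenorhabditis elegans of the L4 larval stage, 50 hours of age, with 2 biological replicates and 1 group. The worms were of strain OP397, synchronised by bleaching and starvation at L1. They carried the integrated transgene wgIs397, in which D1046.2 is fused to TY1, EGFP and 3xFLAG tags on the clone 91F09, together with unc-119(+) in an unc-119(tm4063) background. Chromatin was sheared by sonication and precipitated with an antibody to GFP. All worms carried the fusion, and no second strain or condition was compared. A control library is named in the labels and was not used here. The labels do not give the extent of the clone or in which cells the fusion was expressed.

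ChIP-seq reads out where a tagged protein, or something it is crosslinked to, sits on DNA. Binding of sequence-specific factors in C. elegans is usually described at promoters and in intergenic enhancers, since worm genes are compact and their regulatory sequence lies close to the 5′ end. Coding exons differ from that sequence in several ways: they are transcribed, they are constrained by the genetic code, and in C. elegans they are richer in G and C than the introns and intergenic sequence around them. A peak in a coding exon of a compact genome can also lie near the end of a neighbouring gene.

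The sequences under the strongest of these peaks are shown first, as the summit base with 50 bp on either side, 5′ to 3′ on the strand of the gene, from the RefSeq genome WBcel235 (ce11). The 5 shown here were in the thresholded lists of both replicates, which held few of the coding exon peaks. None of them holds the hexamer CACGTG.
dos-3, chrIII:835944-836044, minus strand: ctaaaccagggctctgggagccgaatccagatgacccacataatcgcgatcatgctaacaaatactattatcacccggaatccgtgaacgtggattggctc
ril-2, chrV:12596986-12597086, minus strand: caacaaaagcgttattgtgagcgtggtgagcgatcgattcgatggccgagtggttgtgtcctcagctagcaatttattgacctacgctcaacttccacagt
Y43F8B.3, chrV:19519590-19519690, plus strand: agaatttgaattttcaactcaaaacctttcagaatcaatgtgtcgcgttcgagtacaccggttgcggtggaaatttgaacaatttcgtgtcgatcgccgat
D1046.16, chrIV:8922209-8922309, plus strand: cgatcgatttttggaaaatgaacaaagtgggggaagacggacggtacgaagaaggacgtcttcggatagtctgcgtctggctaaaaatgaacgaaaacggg
rap-1, chrIV:8916892-8916992, minus strand: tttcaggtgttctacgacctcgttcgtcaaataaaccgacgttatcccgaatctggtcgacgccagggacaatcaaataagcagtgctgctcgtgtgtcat

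The next 5 windows are shown because they hold CACGTG, in capitals, the palindromic E-box that many basic helix-loop-helix proteins recognise. They are a selection: the peak in ubxn-3, which also holds the hexamer, was stronger than that in rsp-3 (92.5 against 91.1). CACGTG was the preset hexamer with the largest gain in share at these summits over coding exon candidates that did not pass.
kel-1, chrII:11691042-11691142, plus strand: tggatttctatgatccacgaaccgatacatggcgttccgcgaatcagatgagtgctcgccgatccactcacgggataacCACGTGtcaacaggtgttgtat
mnk-1, chrII:10547477-10547577, minus strand: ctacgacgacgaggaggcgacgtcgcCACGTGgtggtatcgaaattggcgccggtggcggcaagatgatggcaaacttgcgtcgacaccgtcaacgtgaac
vit-2, chrX:5101164-5101264, plus strand: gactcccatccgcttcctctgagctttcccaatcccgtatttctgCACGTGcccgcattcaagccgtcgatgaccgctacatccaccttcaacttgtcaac
ain-1, chrX:16615227-16615327, plus strand: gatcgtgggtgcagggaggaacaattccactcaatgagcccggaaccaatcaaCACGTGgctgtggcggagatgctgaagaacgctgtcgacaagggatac
rsp-3, chrIII:12687583-12687683, minus strand: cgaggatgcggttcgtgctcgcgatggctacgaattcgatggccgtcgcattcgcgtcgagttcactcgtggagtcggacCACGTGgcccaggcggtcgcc

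Each peak's signal is the value the authors deposited. Its unit is not stated in the labels or file headers, so it ranks peaks within a list and no more. Signals of the 2 replicates are printed side by side below as deposited. Their scales were not matched and read depth is unknown, so higher or lower between replicates describes the deposited values only. Coding exon peaks were weak within the conservative list. Their median signal was 85.75, with quartiles of 78.7 and 92.9 and a highest value of 181. The medians were 87.9 for the 44 UTR peaks, 90.1 for intronic, 94.1 for intergenic, 106.4 for promoter and 114.8 for tRNA-proximal peaks. The lower quartile of the UTR peaks, 78.3, was below that of the coding exon peaks. The strongest coding exon peak, in dos-3, had rank 154 in the list. Only 1 coding exon peak was among the 200 strongest, 18 were among the 500 strongest and 48 were in the stronger 50% of the list. Every one of the 259 peaks was 296 bp wide.

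**Figure D1:**
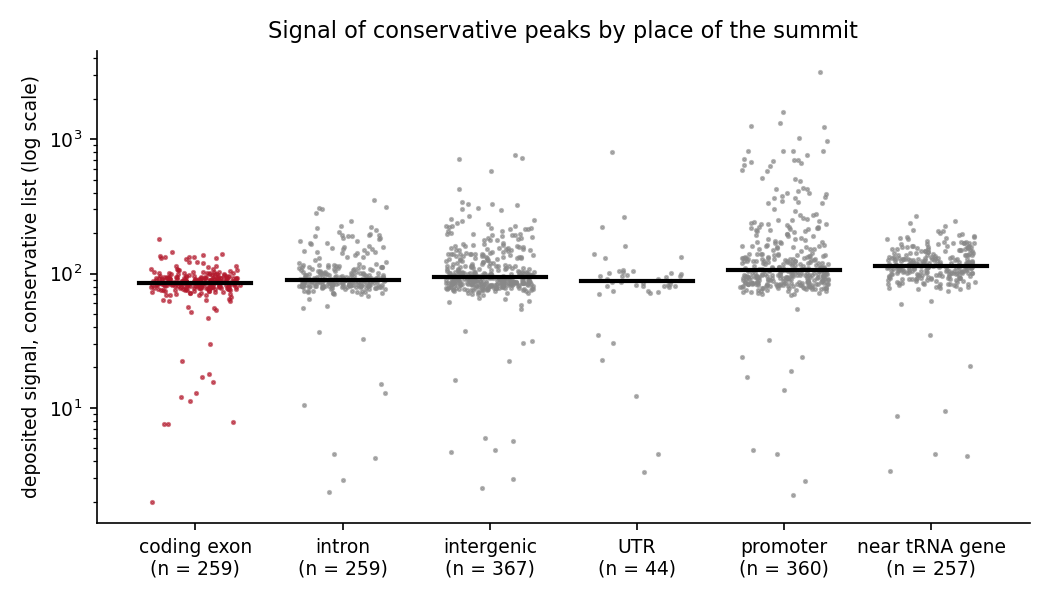
Deposited signal of each of the 1546 conservative peaks (points, log axis) by the place of its summit, with coding exon peaks in red and the median of each class as a black line. Coding exon peaks sit in a narrow band around 85.75 and reach 181, while promoter peaks reach 3151.

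Few coding exon candidates passed. Candidates are all regions in the ranked list that compares the 2 replicates. Of the 31591 candidates that met the rule, 259 passed, which is 0.820% (0.726 to 0.925). Of the 75330 other candidates, 1287 passed, or 1.71%. By class the share was 0.861% for introns, 1.40% for intergenic sequence, 1.46% for UTRs, 2.37% for promoters and 33.8% within 500 bp of a tRNA gene. The intervals of coding exons and introns overlap (introns 0.763 to 0.972). Counted by gene, 243 of the 12527 protein-coding genes with a coding exon candidate had a conservative peak there, or 1.94%. The candidates that did not pass had a median signal of 29.7.

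The strongest coding exon peak lay in exon 11 of 11 of dos-3, which encodes a protein of the DOS-motif family of Notch co-ligands. It spans chrIII:835846-836141 in ce11. It reached 181 with both replicates together, 90.03 in replicate 1 and 96.05 in replicate 2, so both replicates gave it the highest signal of all coding exon peaks. Its summit lay 243 bp from the 3′ end of dos-3 and 1689 bp from the nearest annotated 5′ end, that of zip-2. The next conservative summit was 2087 bp away.

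Besides dos-3, 6 coding exon peaks were in the thresholded lists of both replicates. The suro-1 peak, in the last of 10 coding exons, had a signal of 145.7 (65.3 in replicate 1 and 79.2 in replicate 2). The ril-2 peak, in the last of 6 coding exons, had 139.3 (55.8 and 75.4) and lay within 500 bp of the snoRNA gene C14C10.8. The Y43F8B.3 peak, in the last of 16 coding exons of a transcript that is not the one with the longest coding sequence, had 137.9 (59.2 and 69.1). Y43F8B.3 held a second, weaker coding exon peak, with a signal of 82.4. The pks-1 gene encodes a very large polyketide synthase. Its peak lay in exon 22 of 30, 15180 bp from the nearest annotated 5′ end, which was the farthest of all 259. It had a signal of 128.3 (64.2 and 63.75). Of these 7 peaks, 5 were in the last coding exon, with Y43F8B.3 counted in that transcript.

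The remaining pair of peaks in both lists were the coding exon peaks nearest to D1046.2 itself, which lies on the minus strand at chrIV:8924167-8926067. The peak in exon 1 of 2 of D1046.16 (chrIV:8922111-8922406) had a signal of 136.0, with 63.9 in replicate 1 and 82.7 in replicate 2. The peak in the last of 6 coding exons of rap-1, a small GTPase of the Ras family (chrIV:8916794-8917089), had 130.5, with 59.4 in replicate 1 and 92.9 in replicate 2. They had ranks 5 and 9 among the 259. These 2 were the only coding exon peaks within 20 kb of the tagged gene. Another conservative peak, in the intergenic sequence beside D1046.2, had a signal of 89.5. The transgene adds copies of the clone's genomic DNA to the worms, and how far the clone reaches is not given, so its part in these signals was not tested.

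Genes of core cell functions were among those with the 25 strongest coding exon peaks. The peak in the last coding exon of rpl-3, a protein of the large ribosomal subunit, had a signal of 120.5. Replicate 1 gave it 82.3 and replicate 2 40.3, the second-highest value of replicate 1 and one below the median of replicate 2. The promoter of rpl-3 held a much stronger peak, with a signal of 661.7. The atp-4 peak, in a gene of the mitochondrial ATP synthase, had 121.6 (56.1 and 56.5), and lay 108 bp from the annotated 5′ end, next to the edge of the promoter window. The ndub-2 peak, in a gene of respiratory complex I, had 114.1 (53.2 and 52.8), and that of the proteasome subunit gene pbs-5 had 103.8 (54.9 and 52.2). None of the peaks in atp-4, ndub-2 and pbs-5 was in either replicate's thresholded list.

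The gene mnk-1, whose mammalian counterparts are kinases that act below MAP kinases on a translation initiation factor, was the only gene with 3 coding exon peaks. They lay in exons 1, 2 and 6 of 7 and had signals of 133.4, 122.3 and 75.5. Deposited signals were higher in replicate 1 than in replicate 2 at all of them, on scales that were not matched. The values were 80.1 against 57.2 in exon 1, 75.6 against 46.4 in exon 2 and 57.1 against 34.5 in exon 6. All 3 were in the list of replicate 1 and none in that of replicate 2. The summit in exon 1 lay 168 bp from an annotated 5′ end of mnk-1. A further 14 genes held 2 coding exon peaks, and 228 genes held 1. In some of the genes with 2, such as ppk-2 and eel-1, the peaks overlap and are not separate regions.

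Others of the 25 strongest were in genes of varied function. The kel-1 peak, in a gene for a kelch-repeat protein, had a signal of 133.3, and the best-18 peak, in a bestrophin channel gene, 133.2. The peak in stdh-1, a steroid dehydrogenase gene, had 130.1. The peak in inft-2, a formin gene, had 113.9 (66.6 in replicate 1 and 40.5 in replicate 2), and the peak in acer-1 had 113.7 with the opposite order (44.3 and 75.4). Then followed his-59, a histone gene (111.8), Y87G2A.19 (108.1), clh-6, a chloride channel gene (107.5), vit-2, a yolk protein gene (107.3), T20F5.4 (106.3), H18N23.2 (106.1) and ckr-2, a cholecystokinin-type receptor gene (105.9). The range over the 25 was 103.8 to 181. The other 234 peaks reached up to 103.1.

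The replicates were compared at every coding exon peak. Of the 259, 257 overlapped a ranked region in both replicates. The tyr-1 peak had none in replicate 2 and the mak-1 peak none in replicate 1. Over the 257, replicate 1 signals ran from 34.01 to 90.03 with a median of 44.1, and replicate 2 signals from 33.4 to 96.05 with a median of 43.3. The deposited value was higher in replicate 1 at 144 peaks, on scales that were not matched. At promoter peaks the medians were 60.2 in replicate 1 and 49.5 in replicate 2. Across the 257 peaks Spearman's rho between the replicates was -0.164, and Pearson's r of log10 signals was 0.0980. These are descriptions, since the peaks share 2 libraries and were selected by their rank in both replicates.

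**Figure D2:**
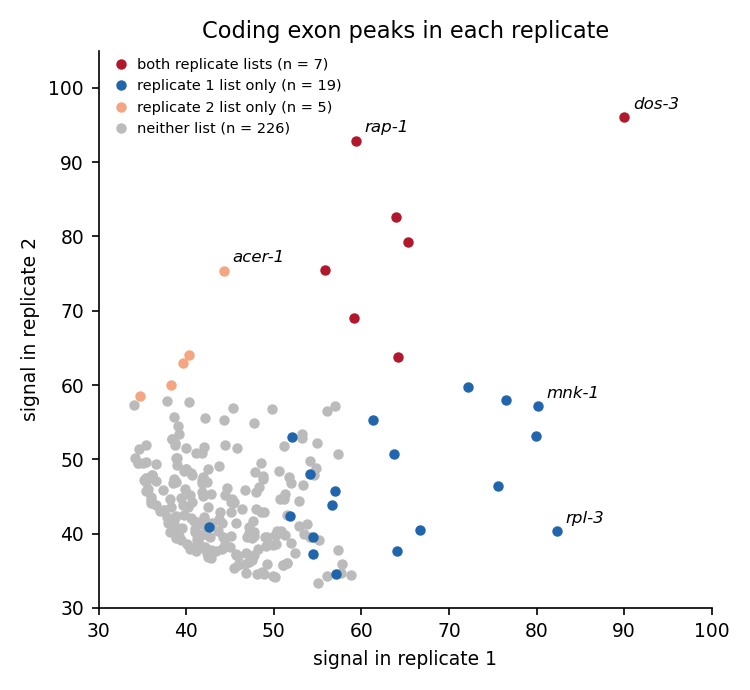
Signal of the 257 coding exon peaks with a region in both replicates, replicate 1 on the x axis and replicate 2 on the y axis, coloured by which replicate's thresholded list they overlap. dos-3 is high in both, mnk-1 and rpl-3 are high mainly in replicate 1, rap-1 and acer-1 are higher in replicate 2, and most peaks are below 60 in both.

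Coding exon peaks were found in a single replicate's own list less often than the other conservative peaks. In the replicate 1 list, 26 of 259 (10.04%, 6.94 to 14.3) overlapped a peak, against 521 of the 1287 others (40.5%). The odds ratio was 0.164 (two-sided Fisher's exact test with Benjamini-Hochberg adjustment over 3 tests, adjusted exact p = 1.81e-23). In the replicate 2 list, 12 (4.63%, 2.67 to 7.92) overlapped, against 404 of the others (31.4%, odds ratio 0.106, adjusted exact p = 2.18e-23). In the optimal list, 182 (70.3%, 64.4 to 75.5) overlapped, against 1080 (83.9%, odds ratio 0.453, adjusted exact p = 1.01e-06). Both replicates' lists held 7 of the coding exon peaks, the replicate 1 list alone 19, the replicate 2 list alone 5, and neither held 228, or 88.03%. The same directions held against the 259 intronic peaks, of which 27.03% and 25.1% were in the replicate 1 and replicate 2 lists. These tests cover the counting of peaks in 2 libraries, and peaks are not replicates.

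The signal moved with these differences, so they were also taken within bands of signal, chosen after seeing the data. Among peaks with a signal from 80 to under 100, 2.69% of the coding exon peaks were in the replicate 1 list, against 9.66% of the others (adjusted exact p = 0.0146). In the replicate 2 list it was 0.671% against 4.51% (adjusted exact p = 0.0350). The ratios of these shares, 0.278 and 0.149, were close to those over all signals, 0.248 and 0.148, although 4 coding exon peaks and 1 coding exon peak stand behind them. In finer bands the replicate 1 shares were 1.05% against 3.04% from 80 to under 90 and 5.56% against 18.2% from 90 to under 100. The replicate 2 shares were 0% against 2.66% and 1.85% against 6.90%. The 95% intervals overlapped in each of these comparisons. In the optimal list coding exon peaks were at 79.9%, against 77.7% of the others, the opposite direction (adjusted exact p = 0.649). With finer bands the optimal list kept the main direction under a signal of 80 (34.7% against 45.6%) and from 90 to under 100 (88.9% against 92.6%), with no test. From 80 to under 90 it had the opposite direction (74.7% against 66.2%), also with no test. Among peaks with a signal from 100 to under 150, which hold 37 coding exon peaks, the shares were 48.65% against 57.0% in the replicate 1 list and 24.3% against 37.1% in the replicate 2 list, with ratios of 0.854 and 0.656 and neither past the threshold (adjusted exact p = 0.581 and 0.457).

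**Figure D3:**
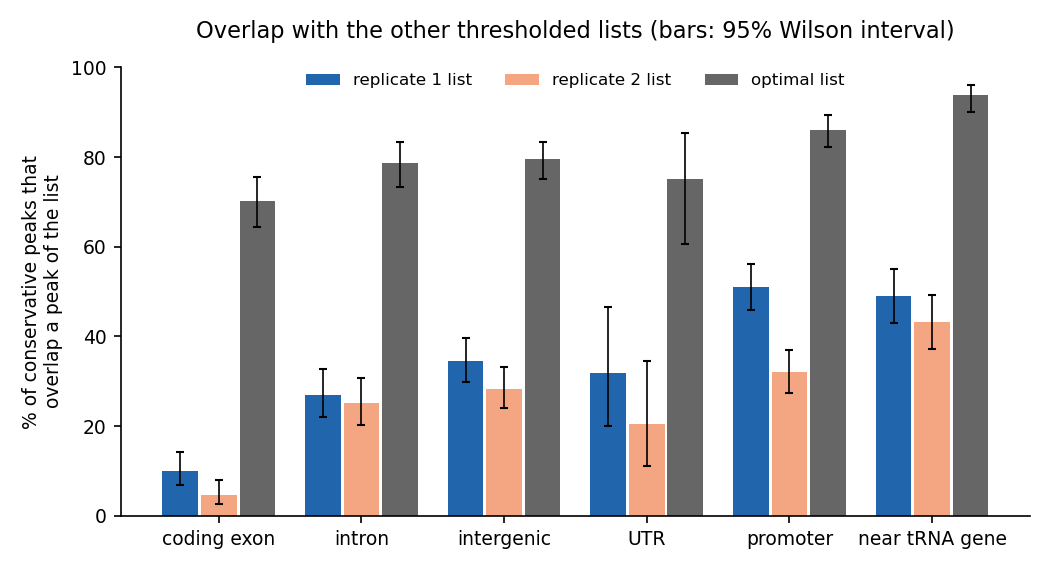
Share of conservative peaks, by the place of the summit, that overlap a peak of the replicate 1 list, the replicate 2 list or the optimal list, with 95% Wilson intervals. Coding exon peaks have the lowest share in each of the 3 lists, 10.04%, 4.63% and 70.3%.

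The weakest coding exon peaks lay beside stronger ones. All 12 with a signal under 40 overlapped a stronger conservative peak whose summit was 199 to 208 bp away, and 9 of these neighbours were themselves coding exon peaks. The weakest, in lin-40, had a signal of 2.01 and its neighbour in the same gene 78.9. In par-3, a cell polarity gene, the pair had 12.1 and 71.55, and in ppk-2, a lipid kinase gene, 17.98 and 93.0. In the ubiquitin ligase gene eel-1 they had 7.57 and 92.65, while the promoter of eel-1 held the strongest peak of the whole list, at 3151. In all, 26 coding exon peaks overlapped another conservative peak, and 45 had another conservative summit within 1000 bp. Where peaks overlap, the replicate signals given for both can come from the same region of a replicate.

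Coding exon peaks lay in first and last coding exons, and toward the 3′ end of the coding sequence, more often than candidates that did not pass. The last coding exon held 69 of them (26.6%, 21.6 to 32.3), against 16.03% of the 31332 candidates that did not pass. The first coding exon held 31 (11.97%, 8.56 to 16.5), against 6.91%. Internal exons held 165 (63.7%, 57.7 to 69.3), against 77.9%. Genes with a single coding exon count as both first and last, and 6 peaks were in such genes. Among the 25 strongest peaks 11 were in the last coding exon, 28.0% of those ranked 26 to 100 were, and 23.3% of those beyond rank 100. The last 20% of the coding sequence held 74 summits (28.6%, 23.4 to 34.35), against 20.2%, and the first 20% held 36 (13.9%, 10.2 to 18.6), against 15.3%. Peaks and candidates that did not pass were not matched for signal or for gene length. The median coding length of the gene was 1569 bp at the peaks and 1668 bp at those candidates, and the median number of coding exons was 7 and 8.

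**Figure D4:**
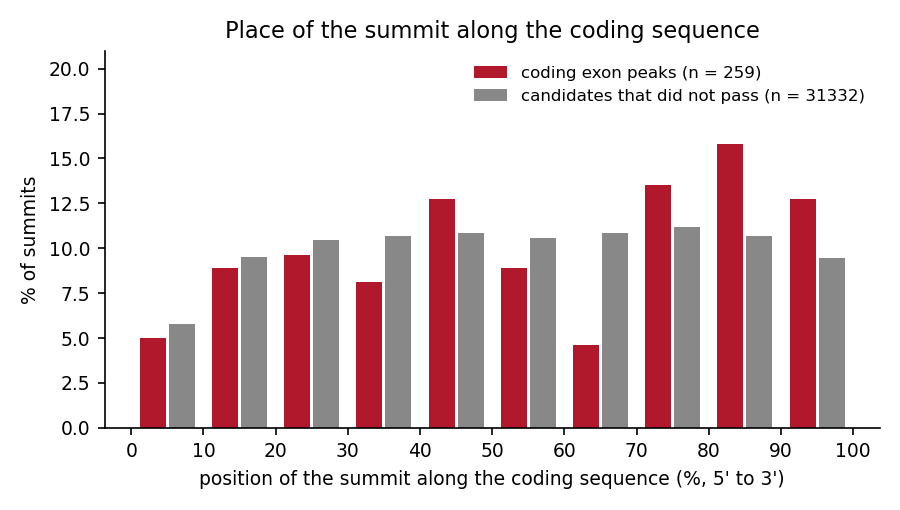
Share of summits in 10 equal stretches of the coding sequence, from 5′ to 3′, for the 259 coding exon peaks (red) and the 31332 coding exon candidates that did not pass (grey). The red bars are above the grey ones in the last 3 stretches, with 13.5%, 15.8% and 12.7% against 11.2%, 10.7% and 9.47%.

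Distance to promoters did not set these peaks apart by its median, which was 1187 bp to the nearest annotated 5′ end for the peaks and 1243 bp for candidates that did not pass. The nearest bin did differ: 35 peaks (13.5%) had their summit within 250 bp of a 5′ end, against 8.03% of the candidates that did not pass. The rule's own edge runs through this range. The 14 coding exon peaks within 50 bp of a promoter window had signals of 74.5 to 136.0 with a median of 89.6. The 11 coding exon peaks just inside a promoter window, left out by the rule, had signals of 4.88 to 100.7 with a median of 87.5. No peak lay within 50 bp of the limit set by tRNA genes.

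Some genes had a peak both in a coding exon and in their own promoter. This held for 19 of the 243 genes (7.82%, 5.06 to 11.9), against 320 of the 12284 genes that had a coding exon candidate but no coding exon peak (2.61%). Those with the strongest promoter peaks were eel-1 (3151), rpl-3 (661.7), tmem-107 (234.8), the histone methyltransferase gene set-16 (218.5) and the nucleoporin genes npp-6 (198.7) and npp-8 (175.4). The coding exon peaks of set-16, npp-6 and npp-8 had 85.85, 82.6 and 80.1. Over the 19 genes, the promoter peak was the stronger in 16 and the coding exon peak in 3, which were ubxn-3 (92.5 against 86.95 in its promoter), pde-6 (88.7 against 83.1) and sca-1 (85.9 against 74.2). In the other 224 genes with a coding exon peak, no conservative summit fell in the gene's promoter window.

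Coding exon summits were rich in G and C. The median GC content of the summit window, 50 bp to either side, was 50.5%, with quartiles of 45.5% and 55.45%, against 43.6% at coding exon candidates that did not pass. Windows of the same size 250 bp to either side had a median of 38.6% at the peaks and 37.6% at those candidates. GC was higher at the summit than at the flanks in 234 peaks (90.35%, 86.1 to 93.4), against 76.98% of the candidates that did not pass. It reached at least 50% in 131 peaks (50.6%), against 18.3%. The median of the summit windows was 48.5% for intronic, 49.5% for intergenic, 49.5% for promoter, 50.5% for tRNA-proximal and 40.6% for UTR peaks. Among the peaks in both replicates' lists, that in suro-1 was at 32.7%, the second-lowest of the 259. The collagen gene col-50 was at 72.3%.

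**Figure D5:**
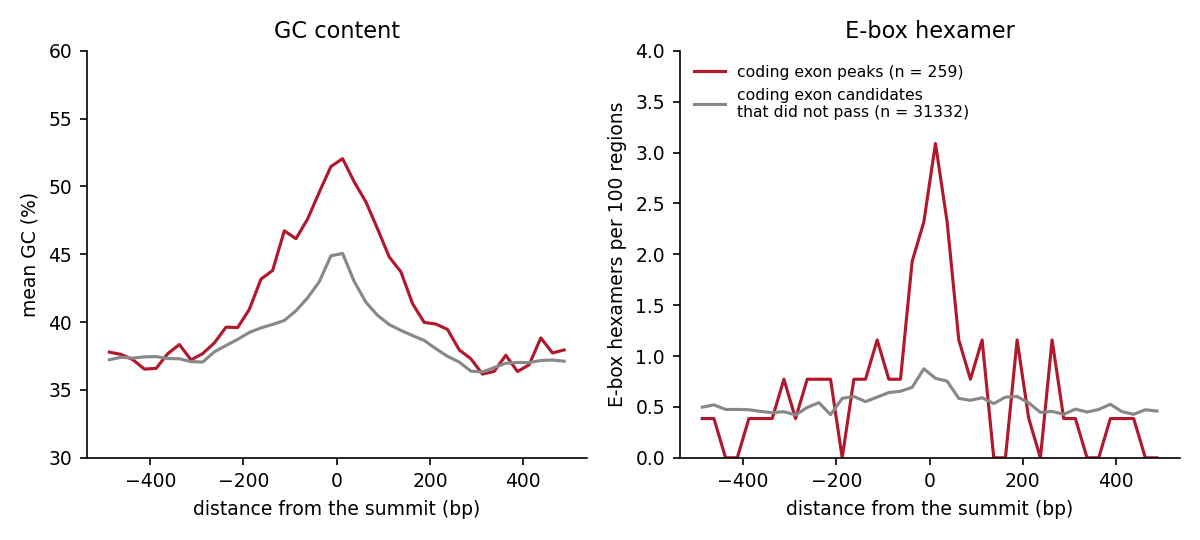
Mean GC content (left) and occurrences of the E-box hexamer per 100 regions (right) in bins of 25 bp around the summit, for the 259 coding exon peaks (red) and the 31332 coding exon candidates that did not pass (grey). GC peaks at 52.05% and 45.06% at the summit, and the hexamer at 3.09 and 0.875 per 100 regions.

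CACGTG was in the summit window of 23 coding exon peaks (8.88%, 5.99 to 12.97) and of 2.90% (2.72 to 3.10) of the candidates that did not pass. The windows 250 bp to the right and to the left of these peaks, in genome coordinates, held it in 1.54% and 2.70%. The hexamer is its own reverse complement, so each occurrence counts for both strands. Of its 25 occurrences, 14 lay within 25 bp of the summit, a stretch that makes up much of the window. Per 100 regions, the peaks had 2.32 and 3.09 occurrences in the 2 bins within 25 bp. They had 1.93 and 2.32 in the bins from 25 to 50 bp. Candidates that did not pass had 0.875 and 0.782 within 25 bp, and 0.693 and 0.753 from 25 to 50 bp. Base composition moved with it: the windows with CACGTG had a median GC content of 55.45% and those without 49.5%. Within windows of 45% to 55% GC, a band chosen after seeing the data, CACGTG was in 9 of 135 peaks (6.67%), against 3.86% of 11216 candidates that did not pass. That smaller difference rests on 9 peaks, and no interval or test was made for it. The share was 3.86% at intronic, 3.27% at intergenic, 4.72% at promoter and 1.17% at tRNA-proximal peaks. A match is a description of the sequence and does not show which protein was bound.

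The genes with CACGTG at the summit had varied roles, and their peaks were no stronger than the rest, with a median signal of 85.85 against 85.7. Besides kel-1, mnk-1 (exon 2) and vit-2, they include ain-1, a GW182-type protein of the microRNA pathway (94.0), ubxn-3 (92.5), the splicing factor gene rsp-3 (91.1), the autophagy kinase gene unc-51 (90.3), set-16 (85.85), the dystrophin gene dys-1 (84.1), the kinesin heavy chain gene unc-116 (83.9) and atp-2, of the mitochondrial ATP synthase (80.9). These genes were named for the hexamer after the values were seen. None of the 23 was in both replicates' lists, and 3 were in the list of a single replicate.

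Of the other preset hexamers, several rich in G and C were higher at the summits. GCGCGC was at 4 summits (1.54%, 0.602 to 3.90), against 0.265% of the candidates that did not pass, GCGCCA at 4.63% (2.67 to 7.92) against 2.17%, and GAACCC at 4.25% (2.39 to 7.44) against 2.21%. Within windows of 45% to 55% GC these were at 1.48% against 0.401%, 2.22% against 3.04% and 2.96% against 2.71%. Others were lower. The TATA-like TATAAA was at 1 of 259 summits (0.386%), against 3.87% of the candidates that did not pass, and runs of 6 A or T were at 6.95% against 12.95%. TTTCAG, which resembles the end of worm introns, was at 8.11% against 17.06%. Within windows of 45% to 55% GC, runs of 6 A or T were at 5.93% against 5.76% and TTTCAG at 8.89% against 11.97%. GAGAGA was at 2.70% against 5.08%. TGATAA was lower over all windows, at 5.79% against 7.47%, and higher within windows of 45% to 55% GC, at 8.15% against 4.35%. CGAACC, a sequence of the internal promoter of tRNA genes on its reverse strand, was at 3.47% (1.84 to 6.47) against 2.32%, in a set from which tRNA genes were left out. Within windows of 45% to 55% GC, CGAACC was lower, at 2.22% against 2.89%. All shares count either strand. With a wider window, 100 bp to either side, CACGTG was at 12.4% against 5.23%. The hexamers whose share was most above that of the candidates, picked after seeing the values, were GGAGCC at 15.06% against 5.86%, CGGCTC at 13.5% against 4.92% and ACCGCC at 11.2% against 3.50%. All 3 are rich in G and C. Within windows of 45% to 55% GC they were at 12.6% against 8.45%, 11.1% against 7.48% and 8.89% against 4.88%.

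Sequence that occurs more than once in the genome was under few of these peaks. An exact 50-bp match elsewhere in the genome was found in 9 summit windows (3.47%, 1.84 to 6.47), against 2.93% of the candidates that did not pass. These were stdh-1 (130.1), the histone genes his-59 (111.8), his-62 (89.5) and his-60 (85.1), the glyceraldehyde-3-phosphate dehydrogenase gene gpd-3 (91.3), K06A9.1 (88.4), the kinesin gene klp-18 (82.4), acox-1.3 (78.45) and F35A5.1 (77.0). The labels do not say how reads from such sequence were assigned, so which copy gave the signal is uncertain. With 36-bp matches the count was 14 (5.41%).

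Gene families were counted over genes with a coding exon candidate, where 1.94% of all genes had a peak. Histone genes had 4 of 13 (30.8%, 12.7 to 57.6): his-59 at 111.8, his-67 at 91.4, his-62 at 89.5 and his-60 at 85.1. The his-59, his-62 and his-60 peaks have summits within 1739 bp of each other in a histone cluster on chromosome IV, and all 3 are in the multi-copy sequence named above. Deposited signals at these 3 were higher in replicate 1 than in replicate 2 (63.8 against 50.7, 58.8 against 34.4 and 56.1 against 34.3). At his-67 the replicate 1 value was lower (38.7 against 51.9). Vitellogenin genes, which encode yolk proteins, had 2 of 6 (33.3%), vit-2 at 107.3 and vit-5 at 76.45. Heat shock proteins and their J-domain cochaperones had 3 of 36 (8.33%, 2.88 to 21.8): hsp-110 at 92.0, dnj-20 at 90.8 and hsp-17 at 87.7. Collagen and cuticle genes had 8 of 167 (4.79%, 2.45 to 9.17), led by col-177 at 102.4, col-50 at 100.9 and col-93 at 93.5.

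Families with a single peak were cytosolic ribosomal proteins (rpl-3, 1 of 36, 2.78%), the muscle, spectrin and matrix genes (hmr-1, the worm E-cadherin, at 85.4, 1 of 22), ligand-gated channels named lgc-, acr- or glr- (glr-2, a glutamate receptor subunit, 1 of 51), kinesin-like genes named klp- (klp-18, 1 of 10) and ubiquitin and translation factors (eif-3.C, at 84.5, 1 of 27). The lists go by gene symbol and miss members with other names: the kinesin gene unc-116 and the acetylcholine receptor gene deg-3 (63.1) also held a coding exon peak. Chemoreceptors had 3 of 624 (0.481%, 0.164 to 1.40): srw-113 at 90.05, srj-10 at 87.8 and srt-33 at 79.8. No coding exon peak was found in F-box genes (0 of 219, which allows up to 1.37%), nuclear hormone receptors (0 of 186, up to 1.61%) or C-type lectins (0 of 182, up to 1.65%). None was found in homeobox genes (0 of 46, up to 6.52%), major sperm proteins (0 of 14, up to 21.4%), chitin and eggshell genes (0 of 16, up to 18.75%) or germline and P granule genes (0 of 16, up to 18.75%). These limits cover counting error only and are set by 3 counts of the total. The upper ends of the Wilson intervals were 1.72% for F-box genes, 2.02% for nuclear hormone receptors and 2.07% for C-type lectins, so the intervals of the receptors and the lectins include the 1.94% of all genes.

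The peaks were spread over all 6 chromosomes, with 38 on I, 43 on II, 61 on III, 39 on IV, 42 on V and 36 on X. Of the coding exon candidates on chromosome III 1.20% passed (0.932 to 1.53), against 0.669% to 0.884% on the other chromosomes. That is 4.43 peaks per megabase on chromosome III and 2.01 to 2.81 elsewhere. For the shares that passed, the interval of chromosome III overlapped those of I, II, IV and X. The interval of V (0.495 to 0.903) lay below it. Besides ril-2, tmem-107 (signal 100.3, near F39B2.14) and ubxn-3 (near F48A11.7) lay within 500 bp of a snoRNA gene, and glr-2 within 500 bp of sls-2.16, of the snRNA class. No coding exon peak lay within 500 bp of a microRNA gene.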

How the data were processed

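Peak lists of a GFP ChIP-seq of D1046.2 were used, from 2 biological replicates. Per the labels, the lists are on ce11 and derive from the alignments of the replicates and a further file. The aligner and peak caller: not given in the sources used here. The signal and the score of each peak are the authors' deposited score values. The lowest score in the conservative list is 830. The ranked lists hold the deposited −log10 of the global irreproducible discovery rate, at least 2.00 in the conservative list. Read depth is unknown, since the files hold peaks and no counts, and intervals cover the counting of peaks only.

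Summits were placed on the Ensembl annotation of WBcel235 (release 115), and sequence was read from the RefSeq genome. Coding exons were numbered in the transcript with the longest coding sequence, or in another one where only that held the summit. The candidates were the ranked list that holds all 1546 conservative peaks. Signals per replicate come from the nearest ranked region of that replicate that overlaps the peak. Lists overlap with at least 1 bp in common. The 3 tests were Fisher's exact (two-sided, threshold 0.05), and shares have 95% Wilson intervals. The functions were tested on simulated data. Alternatives were other lists, windows, distances, transcripts, overlaps and strengths.

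The members and lists were chosen with earlier results of these data known. Genes named are those with the 25 strongest peaks, with 3 or more peaks, in both replicates' lists, the 3 strongest per family, and those near small RNA genes; a gene outside this rule was named after its values were seen. Tools were scipy 1.17.1, pandas 2.3.3, numpy 2.4.6 and matplotlib 3.10.9, run in Python 3.11.15.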

Additional observations from a re-analysis of the deposited data

Results flagged for a closer look

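The ranked list that compares both replicates holds 7 regions that meet the coding exon rule and reach the lowest score of the conservative list, 830, but are not in that list. In the comparisons above they are counted only among the 31332 candidates that did not pass. They are 7 of 266 such regions, and over all classes it was 76 of 1622. The strongest, in ZC178.2 (chrV:8699635-8699930), had a signal of 163.8, which would rank second after dos-3. The others were in ZC247.1 (127.0), Y8A9A.2 (126.8), H03A11.2 (112.6), the mediator subunit gene mdt-29 (103.9), cla-1, a presynaptic active zone gene (78.65), and T05A7.7 (73.5). Per the labels the thresholded lists derive from a further file whose role is not stated, and its part in leaving these regions out was not tested.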

How the results depend on the processing

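The number of coding exon peaks stayed within 1.5 times of 259 (179 to 292) under the other promoter windows, tRNA distance, peak point, transcripts, merging and the optimal list. It was 48 in the stronger 50% of the list. With replicate 1 left out it was 17 (463 peaks in the replicate 2 list), and with replicate 2 left out 42 (619 in the replicate 1 list). These lists are shorter, but each of the 3 counts is also a smaller share of its list than the 16.75% of the conservative list. Leaving out either replicate gave a median GC of 47.5% to 51.5% and a median position along the gene of 73.8% to 73.99%, against 50.5% and 61.2%. That position was 62.5% in the optimal list, 71.67% with the promoter window of 1000 bp upstream to 500 bp downstream, 58.9% with no promoter exclusion, 60.9% with the longest coding sequence only, 60.96% with overlapping peaks merged or without peaks that overlap a stronger one, and 62.49% in the stronger 50%. The median signal was 84.99 with the wider promoter window and 104.9 in the stronger 50%. The difference in overlap with the replicate lists kept its direction and passed under all 6 other overlaps, comparison peaks, windows, points and mergings (adjusted exact p up to 1.22e-06 in the replicate lists and 0.0340 in the optimal list). The peak midpoint gave the same values as the summit in every result, since both fall on the same base, so it is no separate check. At a signal from 80 to under 100 the optimal list reversed (79.9% against 77.7%). At a signal from 100 to under 150, an alternative also chosen after seeing the data, it reversed too (100% against 98.8%), and the replicate 1 (48.65%) and replicate 2 (24.3%) shares no longer passed. With 37 coding exon peaks in that band, the intervals are wide (33.45% to 64.1% and 13.4% to 40.1%). No paired analysis was possible because there is 1 group.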
